A study of Mus musculus with 6 samples.

Results

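Sp100 and its neighbours on mouse chromosome 1 belong to the speckled-protein family, and a stretch of Sp100 has been copied, together with the receptor-like gene Csprs, into a repeat beside them. The 6 members described here were the models named Sp100, Sp110, Sp140, Csprs, Gm15433 and Gm7592, out of 43629 named gene models. All 6 were among the 14413 models with enough counts to be tested. They were picked with the difference between old and young hearts in view, so their old and young values are a description and carry no test. Hearts came from male C57BL/6 mice on normal chow, at 2 months of age in the young group and 22 months in the old group. There were 3 animals per age. Total RNA of heart tissue was sequenced, and no genotype or drug treatment is labelled. The labels give heart tissue as the source, while their extraction text names another sample type, abbreviated NRVMs.

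Sp100 is a permanent protein of PML nuclear bodies, the spherical nuclear structures built by the PML protein and held together by the small modifier SUMO. Sp110 and Sp140 are relatives that share chromatin-reading domains with Sp100 and are best known from leukocytes. Genes of this family and PML itself are transcribed more when interferons act on a cell. Csprs stands for component of Sp100-rs, a chimeric mouse gene in which the start of Sp100 is joined to Csprs sequence and which is repeated many times in some mice.

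Sp100 (ENSMUSG00000026222) lies on the plus strand of GRCm38 at chr1:85649988-85709998. Sp140 (ENSMUSG00000070031, plus strand, chr1:85600378-85645037) and Sp110 (ENSMUSG00000070034, minus strand, chr1:85576899-85598817) precede it. Gm7592 (ENSMUSG00000090186, plus strand, chr1:85526690-85550577) is annotated in GENCODE as a transcribed unprocessed pseudogene. Gm15433 (ENSMUSG00000096802, plus strand, chr1:84963669-84964559) is annotated as a processed pseudogene, the kind made by copying RNA back into DNA. Csprs (ENSMUSG00000062783) is protein-coding and was placed on the minus strand of the unplaced scaffold GL456221.1, bases 111572 to 163011, with 2 exons, 2719 exon bases and 891 coding bases.

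The Gm7592 transcript shows the make-up of the repeat, and 300 of its 627 bases across the join are printed for that reason. Its first 355 bases aligned to Sp100 with 6 mismatches (98.3% identity), starting at the first coding base of the GENCODE Sp100 transcript used here, its base 89. After 23 bases that aligned to neither, bases 379 to 534 matched the start of Gm15433 with 1 mismatch (99.4%), and bases 533 to 627 matched its last 95 bases with none. In the first sequence below, capitals begin at the first base aligned to Gm15433. In the other sequences, capitals are bases that differ from Gm7592. The printed Gm15433 stretch is chr1:84963669-84963718 on the plus strand.
Gm7592, bases 129 to 428: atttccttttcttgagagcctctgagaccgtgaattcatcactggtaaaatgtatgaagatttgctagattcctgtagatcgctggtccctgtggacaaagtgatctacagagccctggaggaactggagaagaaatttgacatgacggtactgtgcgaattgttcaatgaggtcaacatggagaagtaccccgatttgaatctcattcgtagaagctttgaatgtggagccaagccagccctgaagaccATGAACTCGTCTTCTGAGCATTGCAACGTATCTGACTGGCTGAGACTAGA
Sp100, bases 217 to 443: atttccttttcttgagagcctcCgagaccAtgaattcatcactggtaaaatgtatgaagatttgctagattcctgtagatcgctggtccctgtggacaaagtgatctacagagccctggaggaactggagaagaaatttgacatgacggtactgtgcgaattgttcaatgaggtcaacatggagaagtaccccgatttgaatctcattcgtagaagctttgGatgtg
Gm15433, bases 1 to 50: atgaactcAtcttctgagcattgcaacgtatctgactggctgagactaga

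Counted from the first base of Gm7592, with the Sp100 base written first, the 6 differences were G13A, G16A, C58A, C151T, A158G and G350A. The change C151T gives Gm7592 a stop codon after 50 codons in the frame of Sp100. Gm15433 kept an open frame of 296 codons over its whole 891 bases, the same length as the coding bases of Csprs. The Csprs sequence itself was not compared here. Bases 157 to 796 of Gm15433, 640 in all, are missing from Gm7592. The map of aligned blocks shows these pieces to scale.

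**Figure D1:**
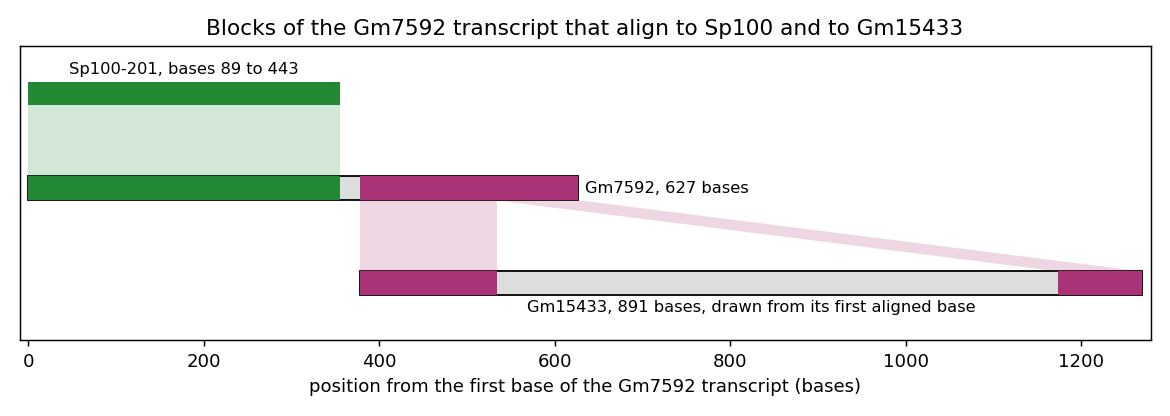
Horizontal bars are transcripts drawn along the position from the first base of Gm7592 in bases, and shading joins aligned blocks. Gm7592 (middle, 627 bases) aligns to Sp100 over its first 355 bases (green) and to both ends of Gm15433 (purple), without the 640 bases in the middle of Gm15433 (grey).

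This likeness bears on every count of the repeat, because a read can match several copies and the authors' handling of such reads is not known. Of all windows of 100 bases, 61.1% in the Gm15433 transcript and 55.7% in that of Gm7592 also occurred letter for letter in a transcript of another gene. Csprs was not among the transcripts searched, so its own share is not given and the shares of its relatives may be higher. The share was 28.6% in Sp140, 21.1% in Sp110 and 7.18% in Sp100. Counts of Csprs, Gm15433 and Gm7592 are therefore uncertain one by one and are also given as a sum. Sp140 shared its windows with A530032D15Rik, C130026I21Rik and other models beside it, and Sp110 with C130026I21Rik.

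Promoters are shown for Sp100 and Sp110 because both hold a pair of GAAA blocks with a spacer of 3 bases. The usual form for interferon-activated factors has a spacer of 2 bases, and no window of a member held it. RefSeq's GRCm38.p6 table held windows of 300 bases around the start of 3 members: 2 for Sp100, 2 for Sp110 and 1 for Sp140. The motif GAAANNNGAAA, searched on both strands and chosen after the usual one had been searched, occurred in 2.75% of 32851 windows. Both overlapping windows of Sp100 and 1 window of Sp110 held it, and the other Sp110 window and that of Sp140 did not. The sequences end at the Sp100 start and 30 bases past the Sp110 start, and capitals mark the motif as read on the gene's own strand. They are chr1:85649738-85649987 on the plus strand and chr1:85598781-85599060 on the minus strand.
Sp100 promoter: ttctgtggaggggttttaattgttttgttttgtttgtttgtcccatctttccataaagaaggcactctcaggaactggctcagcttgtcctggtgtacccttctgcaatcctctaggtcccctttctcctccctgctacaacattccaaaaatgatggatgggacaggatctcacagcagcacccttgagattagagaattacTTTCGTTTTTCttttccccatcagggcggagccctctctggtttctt
Sp110 promoter: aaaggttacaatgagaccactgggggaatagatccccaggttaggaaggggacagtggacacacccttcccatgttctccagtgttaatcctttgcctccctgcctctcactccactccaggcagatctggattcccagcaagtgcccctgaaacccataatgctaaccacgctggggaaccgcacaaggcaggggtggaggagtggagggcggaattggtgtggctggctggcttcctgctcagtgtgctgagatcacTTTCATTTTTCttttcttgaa

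The motif lay at bases 204 to 214 of the Sp100 sequence and 260 to 270 of the Sp110 sequence. The form with a shorter spacer, GAAANNGAAA, occurred in 3.44% of all windows, and TTCNNNGAA, the core bound by STAT proteins, in 8.30%. Neither was in any of the 5 windows of the members. A match is a run of letters and not a measured binding site.

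Levels below are CPM, counts scaled to library size with TMM factors, with the mean ± SD of 3 hearts. Log2 fold changes are old over young with an approximate SE from edgeR. Libraries held 13673856 to 15583364 counts. Markers of cardiomyocytes, headed by the myosin gene Myh6, were present throughout at a summed 51303 to 69074 CPM. The SD in CPM was larger in old than in young hearts for all 6 members, whose means were also larger.

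Sp100, a permanent protein of PML bodies, stood at 57.5, 60.5 and 58.0 CPM in the young hearts. It stood at 87.8, 72.4 and 171 CPM in old 1, old 2 and old 3. All 3 old hearts lay above all young ones, and old 3 was far above the other old ones. The mean went from 58.7 ± 1.60 to 110.3 ± 52.9 CPM (log2 fold change 0.91 ± 0.28). Sp100 was not among the genes past the edgeR threshold. Without old 3 the log2 fold change was 0.45.

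Sp110, a nuclear body protein linked to defence against intracellular bacteria, measured 6.60, 9.50 and 7.66 CPM in young and 18.1, 8.30 and 24.6 CPM in old hearts. The groups overlapped, since old 2 lay below young 2. The log2 fold change was 1.10 ± 0.34 over means of 7.92 ± 1.47 and 17.0 ± 8.22 CPM, and Sp110 was not past the threshold. It was 0.74 without old 3.

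Sp140, the leukocyte relative, measured 1.51, 2.31 and 2.70 CPM in young and 5.52, 3.90 and 6.90 CPM in old hearts. No old heart reached down to the young range. The mean was 2.17 ± 0.607 CPM in young and 5.44 ± 1.502 CPM in old hearts, a log2 fold change of 1.32 ± 0.31, past the threshold. That call was absent without any 1 of the 3 young libraries and without old 3, where the log2 fold change was 1.11.

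On the authors' FPKM scale, which divides by gene length, Sp100 was the most abundant of the 3 speckled-protein genes at both ages. Its deposited FPKM averaged 7.45 ± 0.221 in young and 13.95 ± 6.69 in old hearts. Sp110 followed with 1.120 ± 0.209 and 2.39 ± 1.15 FPKM. Sp140 was lowest with 0.626 ± 0.172 and 1.56 ± 0.427 FPKM. In old hearts the SDs of Sp110 and Sp140 overlapped, and old 2 held about equal FPKM of both, 1.18 and 1.130.

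Csprs, the receptor-like part of the repeat, had 4, 0 and 1 counts in the young hearts and 84, 52 and 133 counts in old 1, old 2 and old 3. In CPM these were 0.275, 0 and 0.0644 against 5.15, 3.69 and 9.87, so the groups were far apart. A count of 0 in young 2 allows up to 3 counts, or 0.203 CPM. The ratio of summed counts, scaled to library size, was 54.9 with an exact 95% interval of 23.3 to 171. The log2 fold change was 5.70 ± 0.68, and 7.23 without young 1, which held 4 of the 5 young counts. In the fit of all genes, 8 tested genes had a larger log2 fold change than Csprs and 6 a larger one than Gm15433.

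Gm15433, the processed pseudogene, had 2, 0 and 1 counts in young and 43, 36 and 94 counts in old hearts. The ratio was 58.9 (95% interval 19.8 to 288) and the log2 fold change 5.74 ± 0.74. The fold change was 6.61 on the log2 scale without young 1 and 5.11 without old 3. Gm7592, the model that joins Sp100 and Gm15433 sequence, had 1, 3 and 0 counts in young and 36, 17 and 44 counts in old hearts. Its ratio was 24.8 (95% interval 9.37 to 92.7) and its log2 fold change 4.51 ± 0.72, or 5.73 without young 2 and 3.92 without young 3. In CPM, the lowest old heart stood 18.6 times above the highest young heart for Gm15433 and 5.92 times above it for Gm7592.

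Summed over Csprs, Gm15433 and Gm7592, which does not depend on how reads were divided among these 3, the counts were 7, 3 and 2 in young and 163, 105 and 271 in old hearts. The summed level went from 0.271 ± 0.186 to 12.5 ± 6.70 CPM (log2 fold change 5.50 ± 0.54). The log2 fold change was 6.16 without young 1, and 4.14 with the related models Gm7609, Gm2666, Gm7582 and Gm2619 added to the sum. The 12 young counts are few, and the fold rests on them. The authors' FPKM table lists none of the 3, and it lists no model with a count of 0 in any library.

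**Figure D2:**
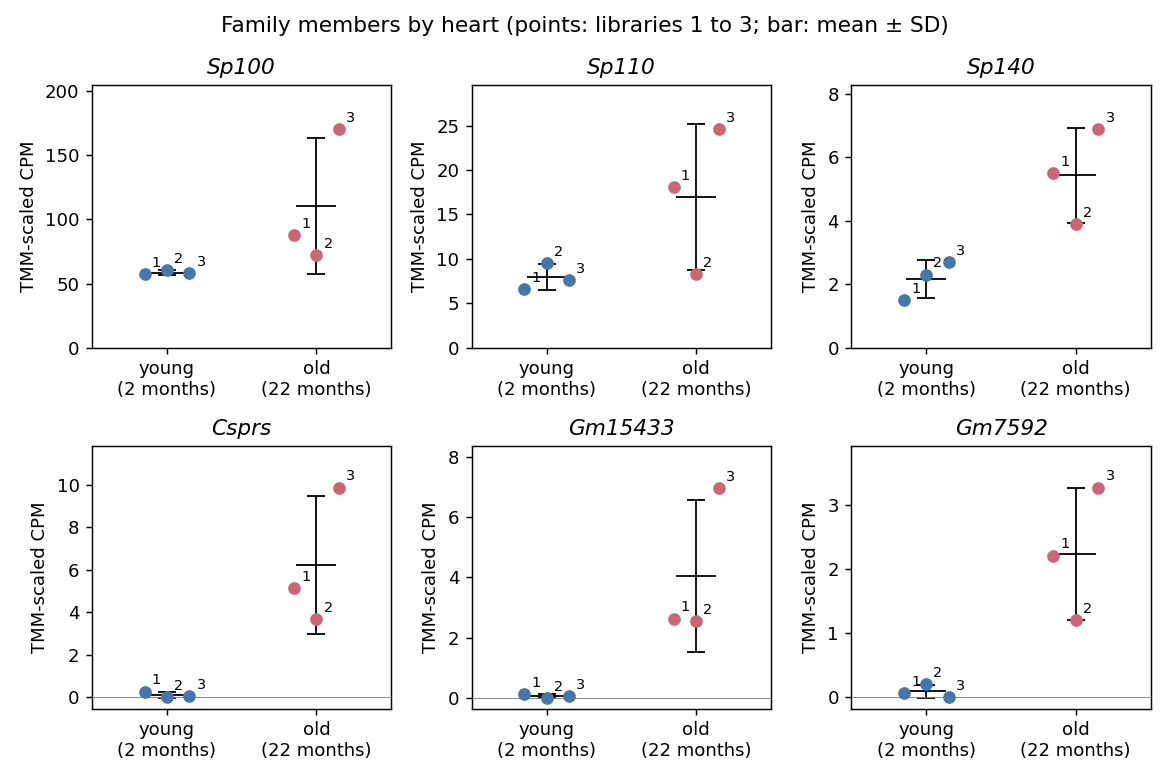
Each panel plots 1 member in TMM-scaled CPM on a linear axis that includes 0, with numbered points for libraries 1 to 3 of each age and the bar for mean ± SD. Old 3 is highest in every panel, old 2 lies within the young range for Sp110 only, and the 3 lower panels show young hearts at or near 0.

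Of the 6 members, 4 were past the edgeR threshold, all higher in old hearts: Sp140, Csprs, Gm15433 and Gm7592. Among all tested genes 15.1% were past it in either direction and 8.72% were past it and higher in old hearts, with 6.36% lower. In 5 of the 6, all but Sp110, the 3 old libraries lay above the 3 young ones, against 18.8% of all tested genes. Nothing is read from these shares, because the members were picked from this contrast. In addition, Csprs, Gm15433 and Gm7592 had 5, 3 and 4 young counts in all. These models passed the filter on low counts through the old hearts alone, so they had to come out higher. The old hearts took the same order in all 6 members, with old 3 highest, old 1 next and old 2 lowest.

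**Figure D3:**
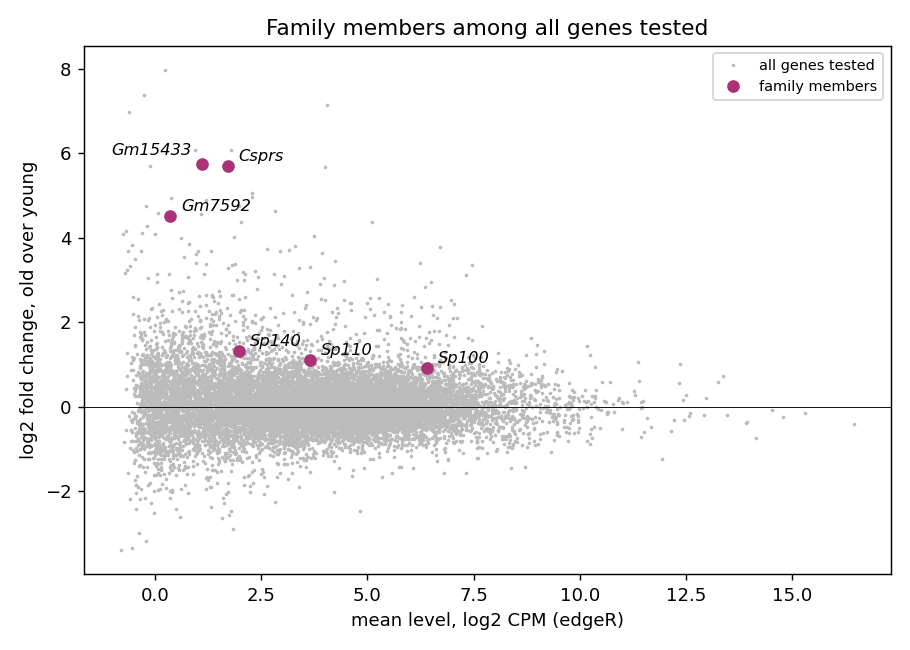
Each grey point is 1 of 14413 tested genes, with the mean level in log2 CPM on the x axis and the log2 fold change of old over young on the y axis. Csprs, Gm15433 and Gm7592 (purple) sit at low levels with log2 fold changes from 4.51 to 5.74, and Sp100, Sp110 and Sp140 sit at higher levels with 0.91 to 1.32.

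The counts of the repeat were divided among its copies in every old heart. Csprs took 51.5%, 49.5% and 49.1% of the summed counts in old 1, old 2 and old 3, and each 95% Wilson interval held the other values. Gm15433 took 26.4%, 34.3% and 34.7%, and Gm7592 22.1%, 16.2% and 16.2%. The intervals of old 1, 20.2% to 33.6% for Gm15433 and 16.4% to 29.1% for Gm7592, did not hold the values of old 2 and old 3. Those of old 2, 25.9% to 43.8% and 10.4% to 24.4%, did hold the values of old 1, and those of old 3 did not. No difference between old 1 and old 2 is therefore shown. In young hearts Csprs took 5 of 12 counts (95% interval 19.3% to 68.0%), so no difference in division was detectable at this depth. The copies differ in length, so these shares are shares of reads and not of molecules.

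Between Gm15433 and Sp100 lie 26 further gene models that the rule for members did not use, the rest of the repeat among them. The 4 with enough counts to be tested were called higher in old hearts by edgeR's quasi-likelihood test with Benjamini-Hochberg adjustment. Among all tested genes 8.72% were called higher. All but Gm7609 had 4 or fewer young counts in all and passed the filter on low counts through the old hearts alone. They therefore had to differ, and this count and their adjusted p values are a description. Gm7609 (plus strand, chr1:85199613-85213786), whose transcript holds all 891 bases of Gm15433 with 6 mismatches, had 9, 14 and 15 counts in young and 73, 83 and 168 in old hearts (log2 fold change 3.15 ± 0.44, adjusted p = 0.00338). C130026I21Rik (minus strand, chr1:84992690-85270566), the model that shares windows with Sp140 and Sp110, had 1, 1 and 2 counts in young and 35, 17 and 21 in old hearts (4.08 ± 0.55, adjusted p = 0.00301). These models share sequence with the members, so they are not independent of them.

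Gm7582 (minus strand, chr1:85027954-85041958), a pseudogene that carries the ends of Gm15433, had 2, 0 and 1 counts in young and 13, 14 and 19 in old hearts (3.82 ± 0.71, edgeR adjusted p = 0.00955). It was no longer past the threshold without young 2 or without young 3 (log2 fold changes 3.30 and 3.78). A530040E14Rik (plus strand, chr1:85105946-85114035), an antisense RNA that overlaps A530032D15Rik, had 1, 0 and 2 counts in young and 17, 19 and 41 in old hearts (4.58 ± 0.77, edgeR adjusted p = 0.00678). Whether counting used strand is not known, so reads of these overlapping models cannot be told apart. In all 4 models every old heart lay above every young heart, against 18.8% of all tested genes. For all but Gm7609, the way they passed the filter made this near certain, so nothing is read from it.

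Outside the family, 300 kb to either side, the 5 tested genes were Trip12, Fbxo36, A630001G21Rik, Cab39 and Itm2c. Their log2 fold changes were 0.15, -0.03, 0.53, -0.30 and -0.42 in that order. edgeR called 0 of them, 1 had an unadjusted p under 0.05, and DESeq2 and limma-voom also called 0. Among all tested genes edgeR called 15.1%, and 5 genes are too few to set this count apart from that share. A630001G21Rik, annotated next to Sp100, had the largest value of the 5. In CPM every old heart lay above every young heart for it, against 18.8% of all tested genes. For Cab39 and Itm2c every old heart lay below every young heart, and the share of all genes doing so is not given.

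**Figure D4:**
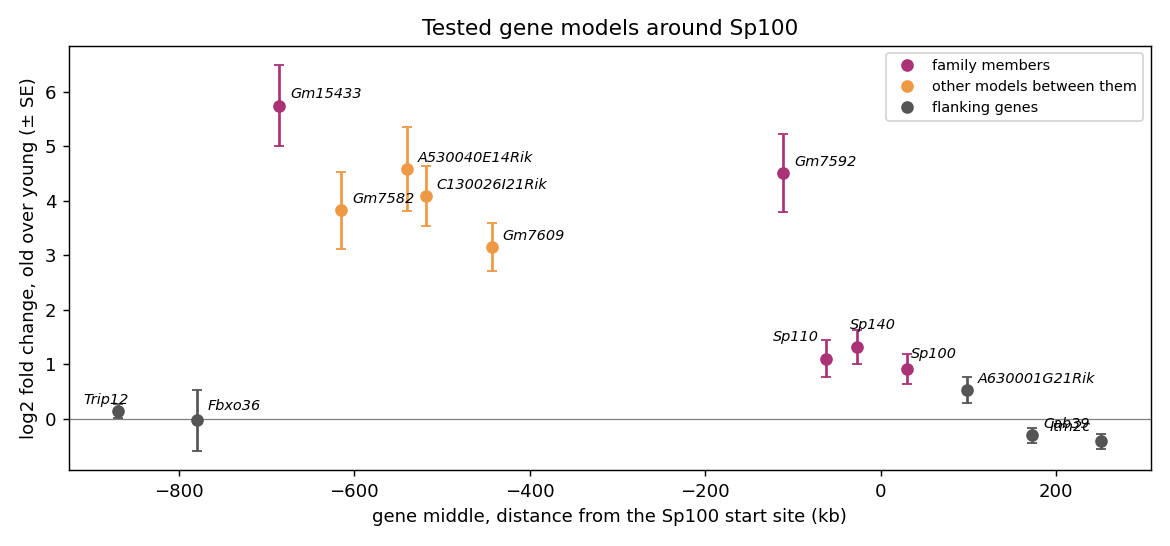
Points are tested gene models at their distance from the Sp100 start in kb, with the log2 fold change of old over young and its SE as bars. Members (purple) and the other models between them (orange) lie between 0.91 and 5.74, and the flanking genes (grey) between -0.42 and 0.53; Csprs is on a scaffold and is not drawn.

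A list of 30 genes covered other parts of the PML bodies, in which Sp100 resides, and the handling of SUMO. Of these, 3 rose and 2 fell by edgeR's test, a share near the 15.1% called among all tested genes. The median log2 fold change was 0.08, against 0.02 over all tested genes. The risers were Isg20, an interferon-induced exonuclease (0.99 ± 0.27, adjusted p = 0.0392), Morc3, an ATPase of PML bodies (0.85), and Senp2, a SUMO protease (0.63). Those that fell were the modifier gene Sumo2 (-1.48 ± 0.26, adjusted p = 0.00803) and the histone H3.3 gene H3f3a (-1.20 ± 0.27, adjusted p = 0.0195), both of which have near-identical copies elsewhere. The count was 0 higher and 1 lower without any 1 young library or without old 3, so the calls of Isg20, Morc3, Senp2 and H3f3a were lost there, and 10 higher and 4 lower without old 1. The call of Isg20 was also lost with limma-voom and on FPKM, and that of Morc3 without old 2.

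Pml, which forms the shell of the bodies, measured 18.9, 17.98 and 21.4 CPM in young and 23.2, 27.2 and 59.4 CPM in old hearts. As for Sp100, old 3 stood well above the other old hearts, and the change was not past the threshold (0.91 ± 0.31, edgeR adjusted p = 0.0774). Daxx, the histone chaperone that sits in the bodies, was not past it either (log2 fold change 0.45). Among 17 genes of chromatin and transcription factors known to work with Sp100, 0 rose and 2 fell, with a median of -0.14. Among all tested genes 15.1% were called and 6.36% were called lower, so this count is near the background. They were Ets1, a transcription factor of endothelium and lymphocytes (-0.92 ± 0.14, edgeR adjusted p = 0.00487), and Cbx1, which encodes the heterochromatin protein HP1 beta (-0.55 ± 0.15, edgeR adjusted p = 0.0370). The call of Cbx1, though not its direction, was lost without any 1 young library, without old 2, without old 3, and in the fit with a replicate block. Without old 1 the list held 2 higher and 6 lower genes.

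In a list of interferon receptors, signal transducers and feedback regulators such as Usp18, several genes were higher. Of 16, 6 rose and 1 fell, with a median log2 fold change of 0.46. The shares over all tested genes were 8.72% called higher and 6.36% called lower. Irf7, a master regulator of type I interferon genes, went from 31.5 ± 1.01 to 322 ± 143 CPM (3.36 ± 0.29, edgeR adjusted p = 0.000886). Stat2, Irf9, Usp18 and Irf8 also rose, of which Irf8 lost its call without any 1 young library, without old 3, in the fit with a replicate block and on FPKM. The receptor subunit gene Ifngr2 fell by 0.86 on the log2 scale, and Ifnar1, a type I interferon receptor subunit, had a value of -0.07.

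Of 17 interferon-induced genes for nuclear proteins, 14 rose and 0 fell, with a median of 1.57, beside 8.72% of all tested genes called higher. Pml and Isg20 belong to this list and to that of the PML bodies. Dtx3l was not called but went the other way (-0.56 ± 0.22), with every old heart below every young heart in CPM. Zbp1, a sensor of Z-form nucleic acids, went from 1.53 ± 0.442 to 25.3 ± 14.3 CPM (4.03 ± 0.44, edgeR adjusted p = 0.00152), and Ifi35 from 20.7 ± 1.53 to 62.8 ± 22.5 CPM (1.60 ± 0.23, adjusted p = 0.00364). The count of risers was 7, 8 and 8 without young 1, young 2 and young 3. Without old 3 it was 12, with 1 gene lower. The summed level of this list was 696, 822 and 1558 CPM in old 1, old 2 and old 3. Old 3 was thus highest here too. Old 2 lay above old 1 in this sum, in which abundant genes weigh most. The mean log2 level over the list, relative to the young mean, was near equal in them, 1.06 in old 1 and 1.09 in old 2. The order of old 1 and old 2 differed between genes of the list. The part of interferon signalling in the family's levels was not tested.

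Leukocyte markers also moved. Of 14 such genes, 13 were tested, of which 8 rose and 0 fell, with a median of 0.85. Over all tested genes, 8.72% were called higher. Ptprc, the CD45 antigen of all leukocytes, went from 9.47 ± 0.443 to 22.7 ± 3.64 CPM (1.26 ± 0.16, edgeR adjusted p = 0.00280), and Cd52 from 2.87 ± 0.774 to 10.1 ± 1.46 CPM (1.80 ± 0.25, adjusted p = 0.00319). The count was 3, 5 and 3 without young 1, young 2 and young 3. The summed level lay between 272 and 336 CPM in young hearts and was 579, 394 and 367 CPM in old 1, old 2 and old 3. Lyz2, which was not called, made up most of this sum in old 1, with 345, 179 and 145 CPM in the 3 old hearts. No tested marker was at 0. In bulk tissue more cells of a type and more RNA per cell cannot be told apart, and the part of leukocytes in the family's levels was not tested.

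Lymphocyte markers were scarce at both ages, with 7 of 14 tested. Their summed level was 5.43 to 8.87 CPM in young and 8.15 to 9.87 CPM in old hearts. edgeR called 0 of the 7, 1 had an unadjusted p under 0.05, and DESeq2 and limma-voom called 0. Among all tested genes edgeR called 15.1%, and 7 genes are too few to set this count apart from that share. Cd8a (1.18 ± 0.44, edgeR adjusted p = 0.0955) and Nkg7 (1.123 ± 0.52, edgeR adjusted p = 0.168) had the smallest p of the list.

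**Figure D5:**
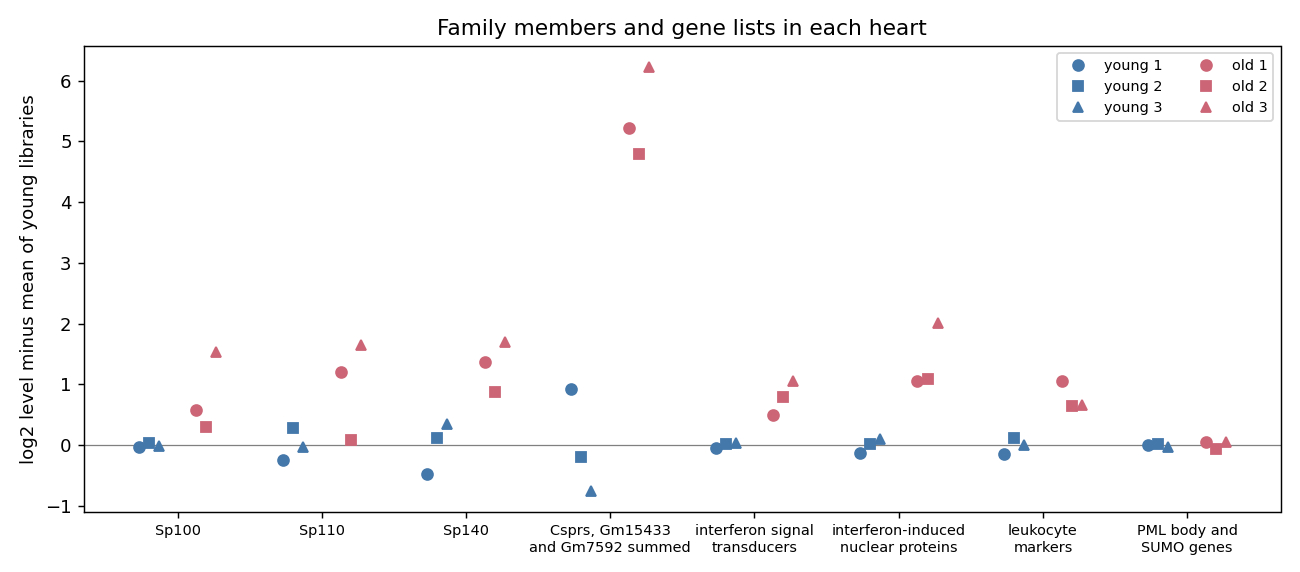
The y axis is the log2 level of each library minus the mean of the young libraries, for members and for the mean over each gene list, with colour for age and symbol for the library number. Old 3 is highest for the family and for both interferon lists, old 1 is highest for leukocyte markers, and PML body and SUMO genes stay between -0.07 and 0.05.

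A search for genes of like pattern covered 12419 tested genes with a mean of at least 1 CPM. The members and all predicted models with Gm or Rik names, such as Gm7609, were left out of it. The genes searched whose pattern over the 6 libraries was most like that of Sp100 were Isg20, Rsad2, Lgals9 and Fam208a. Likeness was the root mean square difference of log2 CPM after 0.5 was added to each count and each gene's own mean was removed, and it was 0.11, 0.13, 0.14 and 0.16 log2 units for them. Rsad2, which encodes the antiviral enzyme viperin, measured 57.7, 56.2 and 49.5 CPM in young and 68.9, 73.5 and 162 CPM in old hearts. Of the family, Sp110 differed from Sp100 by 0.29 and Sp140 by 0.39, farther than all of these. Csprs differed from Sp100 by 2.69.

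Of the genes searched, those most like Csprs were Ms4a4c (0.67), Cxcl13 (0.68), Apol9b (0.73) and Cd163l1 (0.81). Ms4a4c encodes a membrane protein of immune cells and Cxcl13 a chemokine that attracts B cells. Apol9b is an apolipoprotein L gene and Cd163l1 a scavenger receptor gene. Gm15433, a member left out of the search, was closer to Csprs than any of these genes at 0.37, and Gm7592 was farther at 1.61. These distances rest in part on young counts of 0 to 4 and on the 0.5 added to them. Ms4a4c measured 0.275, 0 and 0.193 CPM in young and 3.43, 2.34 and 5.86 CPM in old hearts. Likeness over 6 libraries is a description.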

How the data were processed

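RNA of mouse hearts was sequenced. Per the submitters' processing notes, HISAT2 and the GRCm38.p6 build were used by the authors for alignment, and Subread's featureCounts for counting. The deposited counts are whole reads for each gene model. The authors also deposited FPKM values (scaled to gene length and depth) for 13170 models. For tool versions, gene annotation, strand and reads with several matches, no setting is given in the sources used here.

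Of 44200 models, 571 had no name and held 0.295% to 0.368% of counts per library. They were left out of library sizes and tests. Libraries held 13673856 to 15583364 counts. In R 4.3.3 with edgeR 4.0.16, filterByExpr removed low models and TMM factors scaled the libraries. Ages were compared by edgeR's quasi-likelihood F test, with Benjamini-Hochberg adjusted p under 0.05 as the threshold. CPM values use the TMM-scaled library sizes. Alternatives used limma 3.58.1, DESeq2 1.42.0, other filters and scalings, limma-trend on log2(FPKM + 1) and log2(FPKM + 0.1), a replicate block, and leaving out 1 library at a time. The fits were tested on simulated data. Gene models were placed by identifier with GENCODE M21. Transcripts of that release were aligned with BLAST 2.17.0, and promoter windows came from RefSeq on GRCm38.p6.

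The members and all gene lists were chosen with earlier results of these data known. Named genes were the 6 members, the 2 genes of each list with the smallest p, the 4 genes most like Sp100 and like Csprs, and every tested model within 300 kb of the chromosome 1 members. The result of 1 gene that this rule names is not reported here. Ifnar1, Pml, Daxx, Dtx3l and the called genes of lists with few calls were named after their values were seen. A motif with a spacer of 3 bases was also searched after the data were seen. Intervals cover counting error only, and the number of hearts, 3 per age, limits the precision.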

Additional observations from a re-analysis of the deposited data

How the results depend on the processing

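The count of members past the threshold was 4 under RLE and upper-quartile scaling, the stricter filter, limma-voom, the replicate block and with unnamed models included. It was 6 with no filter and with DESeq2, where Sp100 and Sp110 also passed. On FPKM, which lists 3 members, it was 1 with either pseudocount, and with the copies summed into 1 gene it was 2 of 4. Leaving out 1 library gave 3 to 6. The same numbers of the replicate labels did not pair the samples: correlations of deviations for same-numbered young and old hearts were -0.08, -0.07 and 0.02. With the replicate block, 1774 genes were called against 2174, and the copies summed had a log2 fold change of 5.43. Leaving out 1 library moved the count of all genes between 539 and 5570, with 539, 540 and 619 without young 1, 2 and 3, 5570 without old 1 and 919 without old 3. The cause was not tested. As a description, the log2 fold change of the copies summed ran from 5.41 to 5.54 over other scalings, filters and tools, from 4.98 to 6.16 with 1 library left out, and 4.14 with Gm7609, Gm2666, Gm7582 and Gm2619 added, a sum chosen after seeing the data. FPKM gave no value for the copies. Depth limits the young values of the copies, which rest on 12 counts.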

Other observations

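Between Gm15433 and Sp100, 22 models had too few counts to be tested, and not all of them belong to the repeat. Of these, 15 had a read, of which 12 had more in old and 3 more in young hearts after scaling. Together the 22 models held 13, 15 and 10 counts in young and 67, 26 and 65 in old hearts. Several of the 12 rest on few counts, such as Gm16038 with 1 and Gm18342 with 3 in all. The same share over all untested models was not computed. Gm2666 (minus strand, chr1:85484252-85485142), a processed copy with 12 mismatches to Gm15433 over 891 bases and an open frame of 296 codons, had 0, 2 and 2 counts in young and 11, 9 and 28 in old hearts. A530032D15Rik, a coding model that shares windows with Sp140, had 0 counts in all 3 young hearts and 2, 3 and 7 in old hearts. Rpl19-ps1, a ribosomal protein pseudogene in the same interval, had 6, 9 and 6 counts in young and 8, 3 and 3 in old hearts. Gm17017, an antisense model across the Sp100 start, had 5, 2 and 1 counts in young and 0, 0 and 1 in old hearts. These models were singled out after their values were seen.

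Markers of the other main cell types of the heart are given beside the background of 15.1% of all tested genes called and 6.36% called lower. Of 10 endothelial markers 0 rose and 3 fell, led by Cdh5, the adhesion gene of endothelial junctions (-0.996 ± 0.12, edgeR adjusted p = 0.00235), and Pecam1 (-0.59 ± 0.16, edgeR adjusted p = 0.0396). Of 8 fibroblast markers 0 rose and 2 fell, the collagen genes Col1a1 (-1.17 ± 0.23, edgeR adjusted p = 0.0117) and Col3a1 (-1.10 ± 0.27, edgeR adjusted p = 0.0286), and both calls were lost without young 2, without young 3 and without old 3, and 1 was lost without old 2. Of 10 cardiomyocyte genes 1 rose and 3 fell, with a median of -0.12 and a positive value in 4. Those that fell were led by the actin gene Actc1 (-1.23 ± 0.16, edgeR adjusted p = 0.00256) and Myh6 (-0.75 ± 0.15, edgeR adjusted p = 0.0123). The riser was the myosin light chain gene Myl2 (0.58 ± 0.15, edgeR adjusted p = 0.0315). No cardiomyocyte gene was called higher without old 2, without old 3 or with the replicate block. Without any 1 young library the endothelial count was 1 lower (also without old 3) and the cardiomyocyte counts were 0 higher and 1 lower.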
